A study of Homo sapiens with 8 samples.

Results

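The genes of the collagen chains were described in MDA-MB-231, an invasive human breast cancer line without hormone receptors that was grown from a pleural effusion. A row of the count table was taken as a member when its symbol was COL, a number, A and a number, such as COL13A1, which gave 44 of 61228 rows. A further 10 rows named after collagens (antisense, divergent and pseudogene rows) were left out, and none of them held more than 3 counts in any library. The classes held 11 fibrillar, 9 network-forming, 5 beaded filament and 10 FACIT genes (collagens that sit on the surface of fibrils), 4 transmembrane genes, 2 multiplexins, COL7A1 of the anchoring fibrils, and 2 others (COL26A1 and COL28A1).

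There were 4 groups of 2 messenger RNA libraries, all of MDA-MB-231 cells that had been nucleofected and grown in DMEM/F12 with serum. Control monolayers had received control guide RNAs, and their label names no Cas9. Control gels had received Cas9 and control guides. Knockout monolayers and knockout gels had received Cas9 and guides against ETV1, ETV4 and ETV5, the PEA3 group of ETS transcription factors. Monolayers grew on plastic and were lysed directly, whereas the 3D cultures grew in droplets of collagen I at 1.2 mg/ml or else 2.4 mg/ml, with no record of which sample had which, and were freed with collagenase I, pelleted and frozen before lysis. The gel and this harvest cannot be told apart. If the control monolayers had no Cas9, neither can the gel and Cas9 in the control cells, nor the knockout and Cas9 in monolayers. Whether a group was a pool or a clone, whether its 2 libraries came from separate cultures, and how long the cultures ran were not stated in the labels, so p values measure only the spread between these libraries.

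Collagens are built from chains that wind into a triple helix. The fibrillar chains make the ropes of connective tissue, the type IV chains make the mesh of basement membranes, type VI chains make beaded filaments around cells, and the transmembrane collagens stay anchored in the cell surface. Most types need fixed partners: the type I molecule usually joins the COL1A1 and COL1A2 chains, type IV of most basement membranes the COL4A1 and COL4A2 chains, and type VI the COL6A1, COL6A2 and COL6A3 chains. In breast tumours much of the collagen comes from fibroblasts, and cancer cells make a share of their own.

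Each library held 15824504 to 23896899 counts, of which the collagen genes took 0.194 and 0.195% in control monolayers, 0.184 and 0.174% in knockout monolayers, 0.165 and 0.168% in control gels, and 0.127 and 0.124% in knockout gels. Mitochondrially encoded genes, a sign of RNA quality, took 3.71 and 3.89%, 4.47 and 4.37%, 3.15 and 4.26%, and 3.82 and 2.65% of the counts in the same order. Their share was highest in the knockout monolayers, and its part in the results was not tested. ETV1 went from 200.2 and 205 to 136 and 151 CPM (counts put on the scale of an equal library size by TMM) in monolayers and from 222 and 217 to 138 and 141 CPM in gels, and ETV4 was also lower in the libraries labelled knockout, from 81.3 and 89.2 to 63.5 and 61.2 CPM and from 96.8 and 96.6 to 67.1 and 63.0 CPM. ETV5 lay between 109.6 and 119 CPM in all 8 libraries. Counts over a whole gene do not show whether its reading frame was cut, so these values check the labels only in part. The mesenchymal marker VIM stood at 5284 to 7407 CPM, while ESR1 and PGR, the hormone receptors, had 6 and 4 counts over all libraries. Of the markers of the line, CD44 and CAV1 rose with the knockout in monolayers, and VIM, MSN and AXL fell. The same held in gels except for AXL, which did not pass there. Of 14 fibroblast markers 4 passed the filter on low counts and 3 were at 0 (DPT, MFAP5 and SFRP2). Their summed level was 50.3 to 57.8, 46.4 to 50.9, 51.8 to 56.5 and 57.8 to 62.4 CPM in control monolayers, knockout monolayers, control gels and knockout gels, nearly all of it FBN1 (37.5 to 56.8 CPM), and DCN had 2 counts in all. Within the sum, FBN1 rose from knockout monolayers to knockout gels (log2 fold change 0.50), while PDGFRB and FBLN1 fell (-1.15 and -1.40). The 5 leukocyte markers summed to 1.92 to 6.86 CPM and the 4 endothelial markers to 7.12 to 12.4 CPM over all libraries, and with the knockout in gels LYZ and PECAM1 fell (-2.04 and -0.79). LYZ also fell with the knockout in monolayers (-0.84) and rose from monolayers to gels in control cells (0.71). PECAM1 also fell from monolayers to gels in knockout cells (-0.76). The 8 luminal breast markers, 5 of them tested, summed to 699 to 760.1, 881 to 923, 804 to 831 and 956 to 969 CPM in the same order. Nearly all of it was KRT8 (386 to 554 CPM) and KRT18 (288 to 379 CPM), and CDH1 had 31 counts in all. With the knockout, 3 of the 5 (KRT8, KRT18 and GATA3) were higher in each culture, and EPCAM and FOXA1 passed in neither. The part of these markers in the results was not tested.

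The promoters of 4 collagen genes are shown because the results turn on them. COL13A1 had the smallest adjusted p of the collagen genes for the knockout in both cultures, COL6A3 had the smallest between the cultures in both kinds of cell, and COL4A1 and COL4A2 are transcribed away from each other from neighbouring starts. Each window runs from 250 bases before to 50 bases after the gene's start, taken from RefSeq on GRCh38.p14: COL13A1 at chr10:69801656-69801955 on the plus strand, COL6A3 at chr2:237414115-237414414 on the minus strand, COL4A1 at chr13:110307108-110307407 on the minus strand, and COL4A2 at chr13:110307034-110307333 on the plus strand. Capitals mark AGGAAG, the core letters of the PEA3 site bound by this group of factors, or CTTCCT, the same letters on the other strand.
COL13A1: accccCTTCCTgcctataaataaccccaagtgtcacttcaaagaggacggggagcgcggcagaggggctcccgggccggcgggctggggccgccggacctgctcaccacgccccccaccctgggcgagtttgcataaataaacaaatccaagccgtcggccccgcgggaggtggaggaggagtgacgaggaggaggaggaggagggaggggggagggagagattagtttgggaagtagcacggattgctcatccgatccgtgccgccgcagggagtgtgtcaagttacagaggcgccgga
COL6A3: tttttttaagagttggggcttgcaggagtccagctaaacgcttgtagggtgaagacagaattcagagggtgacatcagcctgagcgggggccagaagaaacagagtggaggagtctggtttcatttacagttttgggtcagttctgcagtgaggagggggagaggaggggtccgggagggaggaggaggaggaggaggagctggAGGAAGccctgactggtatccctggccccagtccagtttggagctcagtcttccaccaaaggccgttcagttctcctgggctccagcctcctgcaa
COL4A1: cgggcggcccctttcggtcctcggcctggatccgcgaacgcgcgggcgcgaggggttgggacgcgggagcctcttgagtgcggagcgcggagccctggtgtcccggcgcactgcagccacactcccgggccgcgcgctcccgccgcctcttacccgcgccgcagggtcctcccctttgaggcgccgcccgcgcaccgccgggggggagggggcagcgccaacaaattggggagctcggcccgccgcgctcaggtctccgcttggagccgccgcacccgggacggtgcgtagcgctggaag
COL4A2: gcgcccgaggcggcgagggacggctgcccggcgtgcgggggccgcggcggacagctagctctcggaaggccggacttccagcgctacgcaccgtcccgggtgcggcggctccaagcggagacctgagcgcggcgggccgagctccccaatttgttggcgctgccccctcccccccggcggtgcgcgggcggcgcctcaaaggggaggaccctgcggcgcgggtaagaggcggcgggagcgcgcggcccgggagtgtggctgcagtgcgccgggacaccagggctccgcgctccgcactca
The match of COL13A1 begins at position -245 and that of COL6A3 at position -46 from the start. The COL4A1 and COL4A2 windows share 226 bases and hold no match. AGGAAG on either strand was found in 33.6% of 35116 RefSeq windows of this length and in 12 of 44 windows of collagen genes (27.3%). These 44 windows belong to 32 collagen genes, of which 9 had a match. Some genes had more than 1 window, and the other collagen genes had none. Of the 19 tested collagen genes with a window, 6 had it (COL11A2, COL13A1, COL27A1, COL5A1, COL6A2 and COL6A3), among them genes that rose, genes that fell and COL11A2, which passed no test. CCGGAAGT, the longer ETS consensus, was in 4.14% of all windows and in 0 of the 44 windows of collagen genes. It does not contain AGGAAG on either strand. A match is a stretch of letters and no measure of binding.

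Of the 44 genes, 24 passed the filter on low counts and were tested, 11 had counts too low to test, and 9 had none in any library. Of the 24, 19 reached the filter's level in all 8 libraries. The other 5 (COL11A1, COL11A2, COL15A1, COL9A3 and COL4A6) reached it only in some groups: COL4A6 only in knockout monolayers, COL11A1 only in monolayers, COL15A1 only in knockout cells, and COL9A3 and COL11A2 in every group but the knockout gels. They were tested only because they were high there, so their calls are values of a description and lend the counts below no support. The 9 without counts were COL2A1 and COL5A3 (fibrillar), COL10A1 (network-forming), COL6A5 and COL6A6 (beaded filament), COL9A1 and COL22A1 (FACIT), and COL23A1 and COL25A1 (transmembrane). A count of 0 allows up to 3 counts, or 0.121 to 0.186 CPM depending on the library, as far as counting error goes. The 11 with few counts ranged from 1 count over all libraries for COL26A1 to 32 for COL4A3. Among them were COL3A1, a main fibrillar chain of stroma, with 24 counts, COL8A2 with 23, COL20A1 with 19, COL1A2 and COL21A1 with 11 each, COL19A1 and COL24A1 with 10 each, COL14A1 with 7 and COL28A1 with 6.

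Per kilobase of the longest coding transcript, COL13A1 had the highest level in each of the 4 groups, with 154 ± 8.86 CPM per kb in control monolayers (SD, n = 2), 76.4 ± 0.837 in knockout monolayers, 167 ± 0.655 in control gels and 72.9 ± 0.289 in knockout gels. COL8A1 and COL4A2 took the next places. COL8A1 was at 59.5 ± 3.02 and COL4A2 at 50.5 ± 1.67 CPM per kb in control monolayers, and in knockout monolayers they stood at 48.0 ± 1.92 and 50.1 ± 2.09, which did not differ beyond their spread. The place of COL4A2 depends on the length used. Its longest coding transcript has 6494 bases, while the exons of all its coding transcripts together cover 12971. For COL8A1 both lengths are 5705. In control monolayers the order went on with COL4A1 (22.2 ± 0.408 CPM per kb), COL6A1 (21.0 ± 0.118), COL18A1 (18.0 ± 0.667), COL7A1 (11.6 ± 2.10), COL5A1 (10.1 ± 0.0659) and COL12A1 (5.46 ± 0.619), where COL7A1 and COL5A1 lay within their spread of each other. In control gels COL6A1 (33.5 ± 0.872 CPM per kb) stood clearly above COL18A1 (15.0 ± 0.00643) and COL4A1 (14.8 ± 0.422), which were within their spread of each other. The most abundant collagen genes were thus a surface collagen and collagens of networks, not the fibrillar chains.

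**Figure D1:**
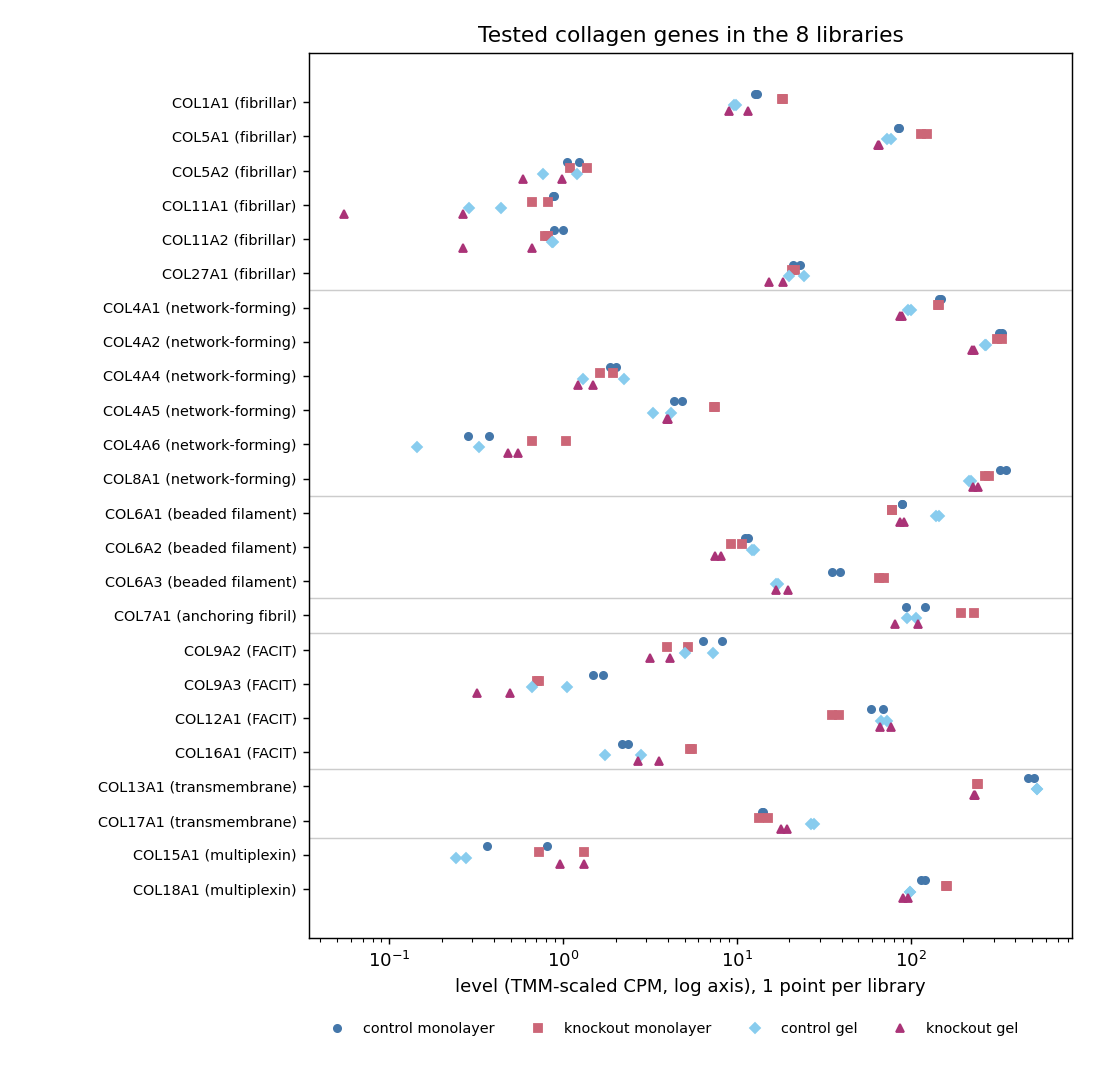
Levels of the 24 tested collagen genes in each of the 8 libraries, in CPM on a log axis, with 1 row per gene ordered by class and 1 symbol per group. COL13A1 sits at 471 and 511 CPM in control monolayers and at 245 and 242 CPM in knockout monolayers, and COL6A3 runs from 16.8 CPM in gels to 70.0 CPM in knockout monolayers.

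The first question was what the knockout did to collagen genes. In monolayers this comparison also holds Cas9 if the control monolayers had none, and its part was not tested. In monolayers, 14 of 24 tested genes passed (edgeR quasi-likelihood test, Benjamini-Hochberg adjusted p under 0.05 over 15568 genes), 8 higher and 6 lower, where 19.2% of all tested genes passed, 9.6% higher and 9.6% lower. COL6A3, COL5A1, COL18A1, COL16A1, COL1A1, COL4A5, COL4A6 and COL7A1 rose, and COL13A1, COL12A1, COL8A1, COL9A2, COL9A3 and COL6A1 fell. The median log2 fold change of the 24 was -0.02, beside 0.01 over all tested genes. In gels, 10 of 24 passed, 1 higher and 9 lower, where 23.9% of all genes passed, 11.5% higher and 12.4% lower. COL15A1 rose, and COL13A1, COL6A1, COL6A2, COL17A1, COL4A2, COL4A1, COL27A1, COL9A2 and COL5A1 fell. Here the median was -0.22, beside -0.00 over all genes. Among the 19 genes at the filter's level in every library, 7 were higher and 5 lower in monolayers, and 0 higher and 9 lower in gels, since the rise in gels was COL15A1 alone. COL13A1, COL6A1 and COL9A2 fell in both cultures (4.88% of all genes did), and 0 collagen genes rose in both (4.23% of all genes did).

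**Figure D2:**
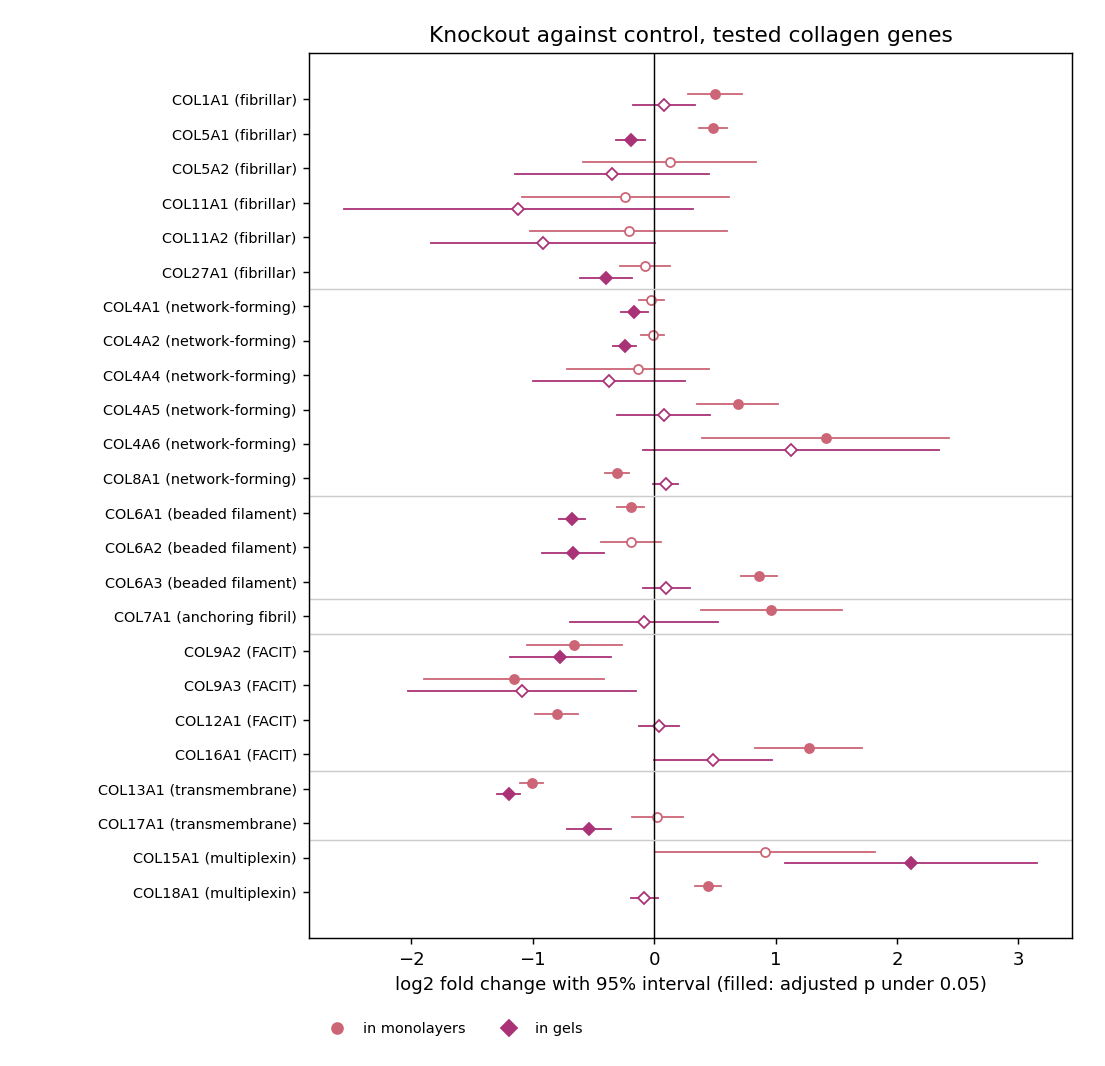
Log2 fold change of knockout against control for the 24 tested collagen genes, in monolayers and in gels, with 95% intervals from the fit, grouped by class. Filled symbols passed the test. COL13A1 lies at -1.01 and -1.20, while COL6A3, COL12A1, COL18A1 and COL5A1 lie away from 0 in monolayers and nearer to it in gels.

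The second question was what growth in collagen I did. In control cells, 11 of 24 tested genes passed, 3 higher and 8 lower in gels, where 26.7% of all genes passed, 16% higher and 10.7% lower. In knockout cells 16 of 24 passed, 3 higher and 13 lower, where 38% of all genes passed, 20.1% higher and 17.9% lower. The medians were -0.20 and -0.68, beside 0.01 and -0.01 over all genes. Like the medians above, they include the 5 genes that were tested only through some groups. Among the 19 genes at the filter's level in every library, 3 were higher and 7 lower in control cells, and 3 higher and 12 lower in knockout cells. Genes lower in gels in both kinds of cell were COL1A1, COL5A1 and COL11A1 (fibrillar), COL4A1, COL4A2 and COL8A1 (network-forming), COL6A3, and COL18A1, which makes 8 genes, or 7 without COL11A1, where 6.76% of all genes were lower in both. COL17A1 and COL6A1 were higher in gels in both, 2 genes, where 10.4% of all genes were. The comparisons in knockout cells share the knockout monolayers with the knockout comparison in monolayers, so a gene that was high in those libraries moves both values.

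**Figure D3:**
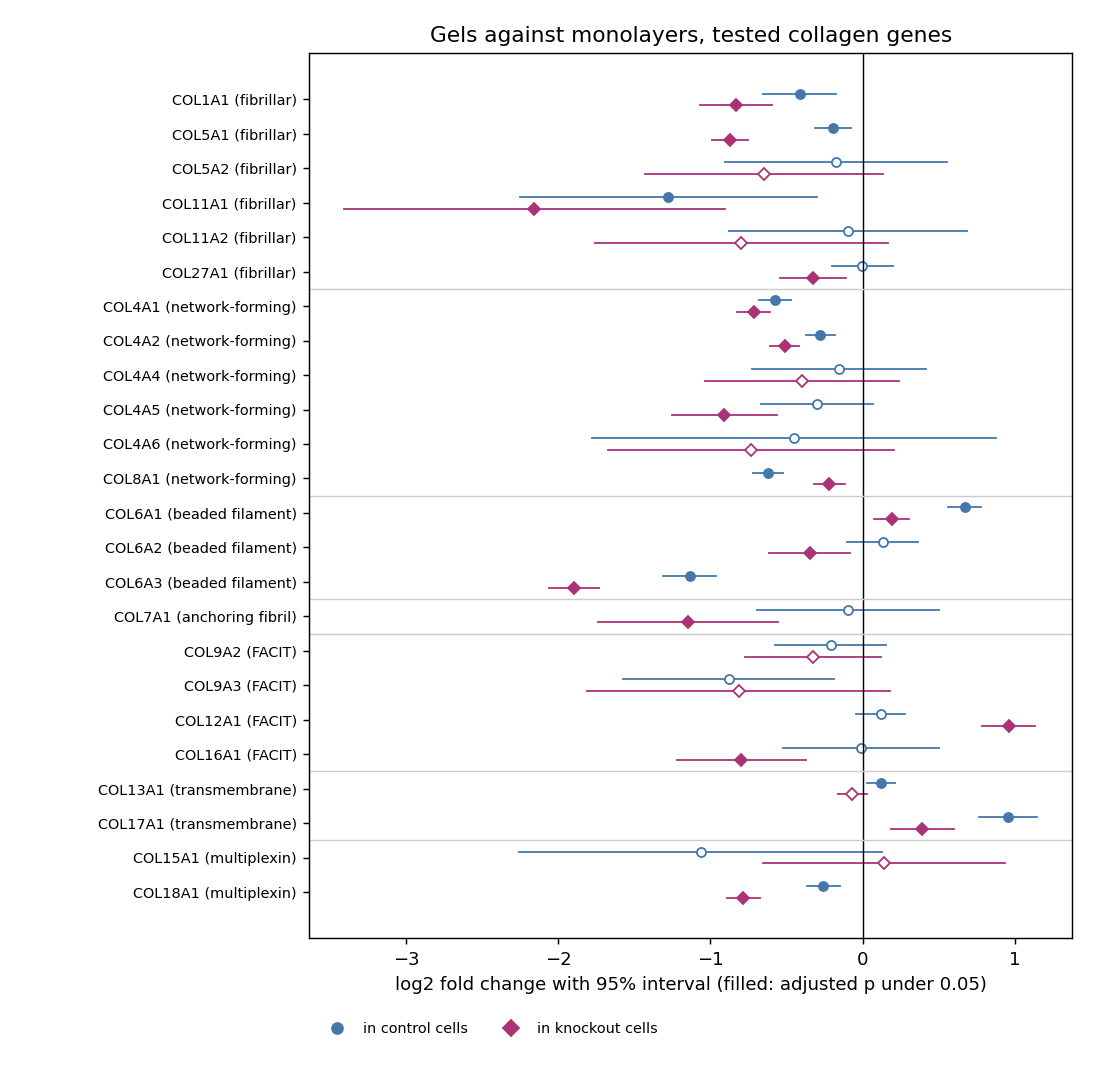
Log2 fold change of gels against monolayers for the 24 tested collagen genes, in control and in knockout cells, with 95% intervals from the fit, grouped by class. Filled symbols passed the test. Most symbols lie left of 0, with COL6A3 at -1.14 and -1.90, and COL17A1, COL6A1 and, in knockout cells, COL12A1 lie to the right.

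The knockout effect itself differed between the cultures, by a test of the interaction, for 8 of 24 genes, where 6.6% of all genes passed, 2.67% higher and 3.94% lower. The effect was lower in gels for COL5A1, COL18A1, COL6A3, COL6A1, COL17A1 and COL4A2, and higher in gels for COL12A1 and COL8A1. The median interaction over the 24 genes was -0.44, beside -0.02 over all genes. It too includes the genes that were tested only through some groups.

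Of the 6 tested fibrillar genes, 2 were higher with the knockout in monolayers (9.6% of all genes) and 2 lower in gels (12.4%). From monolayers to gels, 3 fell in control cells (10.7% of all genes) and 4 in knockout cells (17.9%). Both of these counts include COL11A1, tested only through monolayers. COL5A1 had the highest level of the class. It encodes a chain of type V collagen, which helps to start and to limit the growth of type I fibrils. COL5A1 was at 85.7 and 84.9 CPM in control monolayers, 125 and 114 in knockout monolayers, 72.9 and 76.6 in control gels, and 65.1 and 65.5 in knockout gels. The knockout monolayers stood above every other library, and the knockout gels below every other. COL5A1 rose with the knockout in monolayers by 0.48 ± 0.057 on the log2 scale (SE, adjusted p = 4.84e-08) and fell in gels by 0.19 ± 0.060 (adjusted p = 0.0164), a difference of -0.68 ± 0.083 (adjusted p = 5.14e-07). Its fall with the knockout in gels was lost without control gel library 2, knockout gel library 1 or knockout gel library 2. It was also lost under DESeq2 (adjusted p = 0.0643) and with length and GC offsets (0.0688). Between the cultures it fell in gels by 0.87 ± 0.058 in knockout cells (adjusted p = 5.48e-14) and by 0.19 ± 0.058 in control cells (adjusted p = 0.0128), the latter lost without control monolayer library 1 (0.0607) or control gel library 1 (0.197).

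COL1A1, the main chain of type I collagen and so of the gel's own protein, was also highest in knockout monolayers but at a lower level, with 13.1 and 12.7 CPM in control monolayers, 18.4 and 18.3 in knockout monolayers, 9.56 and 9.88 in control gels, and 11.6 and 9.04 in knockout gels. The 2 kinds of cell overlapped in gels. COL1A1 rose in knockout monolayers by 0.50 ± 0.11 (log2, adjusted p = 0.00103) and had a difference of 0.08 in gels (adjusted p = 0.684). It fell from monolayers to gels by 0.83 ± 0.12 in knockout cells (adjusted p = 6.27e-07). In control cells it fell by 0.41 ± 0.12 (adjusted p = 0.00879). That call was lost under DESeq2 (adjusted p = 0.0516) and without control monolayer library 1 or control gel library 1. COL11A1, a minor fibrillar chain of cartilage, was at 0.885 and 0.869, 0.664 and 0.818, 0.288 and 0.439, and 0.0548 and 0.266 CPM in the order used above, so all gel libraries were below all monolayer libraries. Having been tested only through its monolayer level, it had log2 fold changes in gels of -1.28 ± 0.48 in control and -2.16 ± 0.62 in knockout cells. The first of these was lost without any of 6 libraries or without the filter (adjusted p = 0.0725). The second was lost without knockout monolayer library 2 or knockout gel library 1. DESeq2 gave no adjusted p for either, and both rest on few counts.

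COL27A1, the last fibrillar gene that passed a test, was at 23.1 and 20.9 CPM in control monolayers, 21.5 and 20.6 in knockout monolayers, 19.9 and 24.5 in control gels, and 18.3 and 15.3 in knockout gels. The knockout gels were the lowest 2 libraries. It fell with the knockout in gels by 0.40 ± 0.10 (log2), lost without control gel library 2 or knockout gel library 2. From knockout monolayers to knockout gels it fell by 0.33 ± 0.11. That call was lost under DESeq2 (adjusted p = 0.0682) and without knockout monolayer library 1 or knockout gel library 2. COL5A2, the partner chain of COL5A1, was at 0.585 to 1.36 CPM and COL11A2 at 0.266 to 0.993 CPM over the 8 libraries, and neither passed in any comparison. Their log2 fold changes ran from -0.65 to 0.13 for COL5A2 and from -0.91 to -0.09 for COL11A2.

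The network-forming genes carried the largest summed level. With the knockout in monolayers, 2 of 6 (COL4A5 and COL4A6) were higher and 1 lower, where 9.6% of all genes were higher and 9.6% lower. COL4A6 was tested only through its level in knockout monolayers. With the knockout in gels 2 were lower, where 12.4% of all genes were. Gels were lower than monolayers for 3 of 6 in control cells (10.7% of all genes) and 4 of 6 in knockout cells (17.9%). COL4A1 lies on chromosome 13 (110148963 to 110307233, minus strand) and COL4A2 next to it (110305812 to 110513209, plus strand, GENCODE v29 on GRCh38), and their annotated spans overlap by 1422 bases on opposite strands. COL4A1 was at 145 and 148 CPM in control monolayers, 145 and 143 in knockout monolayers, 96.2 and 100.1 in control gels, and 88.8 and 86.5 in knockout gels. Every gel library stood below every monolayer library. It fell in gels by 0.58 ± 0.052 in control cells (log2, adjusted p = 1.5e-10) and by 0.72 ± 0.053 in knockout cells (adjusted p = 6.32e-13). COL4A2 was at 320.1 and 335, 335 and 316, 269 and 272, and 230.4 and 226 CPM in the same order, and fell in gels by 0.28 ± 0.046 (adjusted p = 2.4e-05) and 0.51 ± 0.047 (adjusted p = 1.39e-10).

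Neither basement membrane chain passed the test for the knockout in monolayers, with differences of -0.02 (95% interval -0.13 to 0.08, adjusted p = 0.79) for COL4A1 and -0.01 (-0.10 to 0.08, adjusted p = 0.913) for COL4A2. In gels COL4A2 fell by 0.24 ± 0.047 (adjusted p = 0.000168) and COL4A1 by 0.16 ± 0.054 (adjusted p = 0.0247). The call for COL4A1 was lost when any of the 4 gel libraries was left out. It was also lost under DESeq2 (adjusted p = 0.0766), without the filter (0.0598) and with length and GC offsets (0.0581). The ratio of COL4A1 to COL4A2 per kb was 0.444, 0.434, 0.426 and 0.443 in the 4 monolayer libraries and 0.352, 0.362, 0.378 and 0.376 in the 4 gel libraries. The pair thus moved down together in gels, the COL4A1 level by more, with no overlap between the cultures in the ratio.

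COL8A1, a short-chain collagen of vessel walls and of the cornea's inner membrane, had the second highest level of all collagen genes per kb in control monolayers. It was at 327 and 352 CPM in control monolayers, 282 and 266 in knockout monolayers, 217 and 223 in control gels, and 227 and 243 in knockout gels. The control monolayers were highest, the knockout monolayers next, and the gel libraries lowest, with little between them. COL8A1 fell with the knockout in monolayers by 0.31 ± 0.049 (log2, adjusted p = 1.25e-05) and had a difference of 0.10 in gels (adjusted p = 0.168), an interaction of 0.40 ± 0.070 (adjusted p = 0.000181). Between the cultures it fell in gels by 0.62 ± 0.049 in control cells (adjusted p = 6.98e-12) and by 0.22 ± 0.050 in knockout cells (adjusted p = 0.000618).

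COL4A5 and COL4A6, the paired type IV genes of the X chromosome, were much lower. COL4A5 was at 4.83 and 4.34 CPM in control monolayers, 7.49 and 7.42 in knockout monolayers, 4.18 and 3.29 in control gels, and 4.00 and 3.93 in knockout gels. The knockout monolayers stood apart from the other 6 libraries. COL4A5 rose with the knockout in monolayers by 0.69 ± 0.16 (log2) and fell from knockout monolayers to knockout gels by 0.91 ± 0.17. COL4A6 was at 0.282 and 0.372, 0.664 and 1.04, 0.144 and 0.329, and 0.548 and 0.478 CPM. Its log2 fold change was 1.41 ± 0.50 in knockout monolayers, the only group through which it was tested. That call was lost without any of 7 libraries or without the filter (adjusted p = 0.0827), and DESeq2 gave it no adjusted p. COL4A4 lay between 1.22 and 2.25 CPM in the 8 libraries and passed in no comparison, with log2 fold changes from -0.40 to -0.13.

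The 3 tested chains of type VI collagen did not move as a unit. COL6A1 (chromosome 21, 45981737 to 46005050, plus strand) was at 89.6 and 88.9 CPM in control monolayers, 78.0 and 77.9 in knockout monolayers, 145 and 139 in control gels, and 91.2 and 86.6 in knockout gels. The control gels stood far above the other groups. COL6A1 rose from monolayers to gels by 0.67 ± 0.053 in control cells (log2, adjusted p = 7.6e-12) and by 0.19 ± 0.056 in knockout cells (adjusted p = 0.00749), the latter lost with upper-quartile scaling (0.0545) or by library size alone (0.0847). With the knockout it fell by 0.68 ± 0.053 in gels (adjusted p = 4.22e-12) and by 0.19 ± 0.056 in monolayers (adjusted p = 0.0116), the latter lost without control monolayer library 1 (0.0552) or knockout monolayer library 2 (0.0679). The interaction was -0.48 ± 0.077 (adjusted p = 6.54e-05).

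COL6A2, its neighbour on chromosome 21 (46098097 to 46132849, plus strand), was lower, at 11.1 and 11.5 CPM in control monolayers, 10.6 and 9.27 in knockout monolayers, 12.2 and 12.6 in control gels, and 8.11 and 7.49 in knockout gels. The knockout gels were below every other library. COL6A2 fell with the knockout in gels by 0.67 ± 0.12 (log2, adjusted p = 0.000103), as far as COL6A1, and had a difference of -0.19 in monolayers (adjusted p = 0.306). Its fall from knockout monolayers to knockout gels of 0.35 ± 0.13 was lost without knockout monolayer library 1, knockout gel library 1 or knockout gel library 2. It was also lost under DESeq2 (adjusted p = 0.134), with length and GC offsets (0.136), without the filter and with only the groups compared.

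COL6A3, the longest chain of type VI collagen, lies on chromosome 2 (237324003 to 237414375, minus strand). Between the cultures it took the opposite course to COL6A1. COL6A3 was at 39.0 and 35.4 CPM in control monolayers, 70.0 and 66.0 in knockout monolayers, 16.8 and 17.3 in control gels, and 16.8 and 19.7 in knockout gels. In gels the 2 kinds of cell overlapped, and all gel libraries lay below all monolayer libraries. COL6A3 rose with the knockout in monolayers by 0.86 ± 0.073 (log2, adjusted p = 3.8e-11) and had a difference of 0.10 in gels (95% interval -0.09 to 0.29, adjusted p = 0.491), an interaction of -0.76 ± 0.12 (adjusted p = 4.97e-05). From monolayers to gels it fell by 1.14 ± 0.085 in control cells (adjusted p = 1.99e-12) and by 1.90 ± 0.081 in knockout cells (adjusted p = 1.18e-19), which was 2.20-fold and 3.73-fold.

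The chain ratios per kb show this more directly. COL6A3 to COL6A1 was 0.172 and 0.157 in control monolayers, 0.354 and 0.334 in knockout monolayers, 0.0457 and 0.0489 in control gels, and 0.0725 and 0.0895 in knockout gels, so the 4 groups did not overlap. COL6A2 to COL6A1 was 0.152, 0.159, 0.167 and 0.146 in the monolayer libraries and 0.104, 0.1104, 0.109 and 0.106 in the gel libraries, so it differed between cultures and overlapped between control and knockout. COL5A2 to COL5A1 ran from 0.0104 to 0.0197 and COL1A2 to COL1A1 from 0 to 0.0276 over all libraries. COL1A2 had 0 to 4 counts in a library, against 170 to 335 for COL1A1, so the usual partner chain of type I collagen was close to absent from these libraries.

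**Figure D4:**
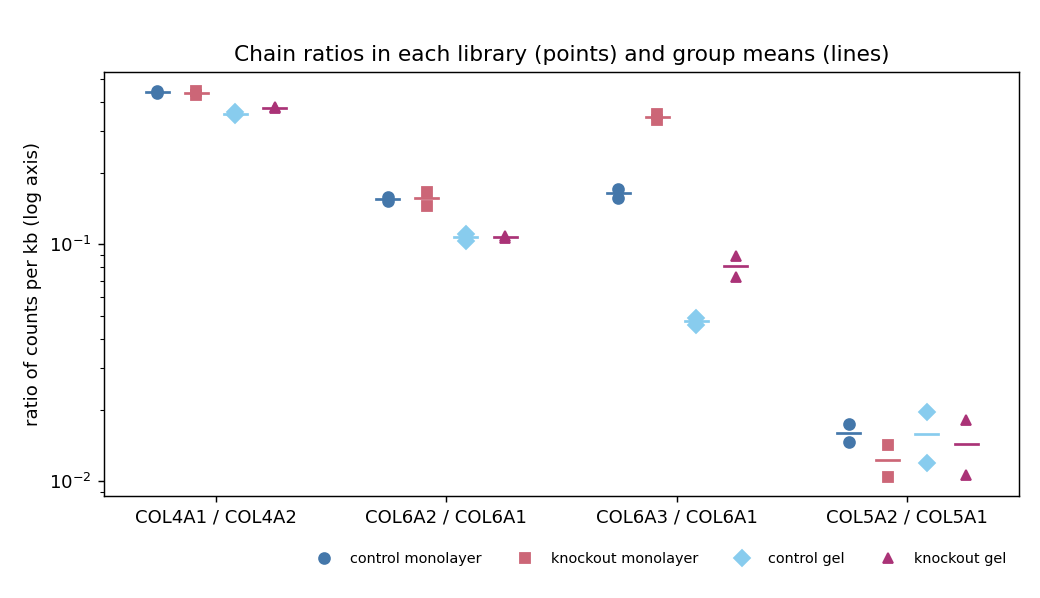
Ratios of the levels per kb of partner chains in each library, on a log axis, with points for libraries and lines for group means. COL4A1 to COL4A2 and COL6A2 to COL6A1 separate gels from monolayers, and COL6A3 to COL6A1 runs from 0.0457 in a control gel to 0.354 in a knockout monolayer.

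COL7A1, the anchoring fibril chain that ties basement membrane to the tissue below, varied widely between replicates. It was at 121 and 93.9 CPM in control monolayers, 230.3 and 194 in knockout monolayers, 95.3 and 108 in control gels, and 110.0 and 81.3 in knockout gels. The knockout monolayers stood above the other 6 libraries, which overlapped. COL7A1 rose with the knockout in monolayers by 0.97 ± 0.21 (log2, adjusted p = 0.0484). That call was lost when any library other than knockout gel library 2 was left out. It was also lost with upper-quartile scaling (adjusted p = 0.0512), by library size alone (0.0546) and without the filter (0.107). COL7A1 fell from knockout monolayers to knockout gels by 1.15 ± 0.22 (adjusted p = 0.0173). This fall was lost with only the groups compared (adjusted p = 0.0574) and without knockout monolayer library 1 or knockout gel library 2. The interaction of COL7A1 was -1.05 ± 0.31 and did not pass (adjusted p = 0.178), except under DESeq2 (0.0199).

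All 4 tested FACIT genes changed with the knockout in monolayers, 1 higher and 3 lower, where 19.2% of all genes did, and 1 of 4 did in gels, where 23.9% of all genes did. The monolayer count includes COL9A3, which was below the filter's level in knockout gels and lends it no support. The monolayer calls of COL9A2 and COL9A3 were lost when some libraries were left out, as given below. COL12A1, which binds fibrils and links them to other matrix, lies on chromosome 6 (75084326 to 75206051, minus strand) and had 86.0% of the summed FACIT level. It was at 69.1 and 58.9 CPM in control monolayers, 38.7 and 35.2 in knockout monolayers, 67.2 and 72.6 in control gels, and 66.6 and 76.9 in knockout gels. The knockout monolayers were the 2 low libraries, and control and knockout overlapped in gels. COL12A1 fell with the knockout in monolayers by 0.80 ± 0.085 (log2, adjusted p = 3.06e-07) and had a difference of 0.04 in gels (95% interval -0.12 to 0.20, adjusted p = 0.773), an interaction of 0.84 ± 0.12 (adjusted p = 5.43e-05). In knockout cells it rose from monolayers to gels by 0.96 ± 0.084 (adjusted p = 1.12e-08), and in control cells the difference was 0.12 (adjusted p = 0.285). The latter passed only with length and GC offsets (0.0346).

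COL16A1, a minor FACIT chain, was at 2.17 and 2.36 CPM in control monolayers, 5.50 and 5.40 in knockout monolayers, 1.73 and 2.80 in control gels, and 3.56 and 2.71 in knockout gels. It rose with the knockout in monolayers by 1.27 ± 0.22 (log2, adjusted p = 4.03e-05), where the 2 groups were far apart, and overlapped in gels (0.49, adjusted p = 0.145). Its fall from knockout monolayers to knockout gels was 0.80 ± 0.21 (adjusted p = 0.00267), lost without knockout gel library 2 (0.0569). COL9A2 and COL9A3 are chains of the type IX collagen of cartilage. COL9A2 was at 6.40 and 8.25, 5.19 and 3.98, 7.30 and 5.05, and 3.18 and 4.09 CPM in the order used above, and fell with the knockout by 0.66 ± 0.19 in monolayers and 0.77 ± 0.20 in gels. The first call was lost under DESeq2 (adjusted p = 0.0689) and without control monolayer library 2 or knockout monolayer library 2. The second was lost without control gel library 1 or knockout gel library 1. COL9A3 was at 1.69 and 1.49, 0.725 and 0.709, 1.06 and 0.658, and 0.493 and 0.319 CPM. DESeq2 gave no adjusted p for its fall with the knockout in monolayers of 1.16 ± 0.36. That call was lost without control monolayer library 1, knockout monolayer library 1 or knockout monolayer library 2. From control monolayers to control gels COL9A3 had a difference of -0.88 (adjusted p = 0.0523). This passed under some settings, among them library size alone (0.0342) and length and GC offsets (0.0392).

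Of the transmembrane genes, COL13A1 alone gave 95.3% of the summed level of its class and 22.6% of that of all collagen genes. Type XIII collagen sits at sites where cells attach to matrix and can be shed from the surface. COL13A1 (chromosome 10, 69801867 to 69964275, plus strand) was at 471 and 511 CPM in control monolayers, 245 and 242 in knockout monolayers, 532 and 534 in control gels, and 233 and 232 in knockout gels. Every knockout library stood below every control library, in both cultures, by a similar distance. COL13A1 fell with the knockout by 1.01 ± 0.047 in monolayers (log2, 2.01-fold, adjusted p = 4.69e-18) and by 1.20 ± 0.047 in gels (2.29-fold, adjusted p = 1.23e-20). The interaction did not pass (-0.19, 95% interval -0.32 to -0.05, adjusted p = 0.0839), except without control monolayer library 2 (adjusted p = 0.0102). Its rise from control monolayers to control gels of 0.12 ± 0.045 (adjusted p = 0.0473) was lost under most other settings, up to an adjusted p of 0.611 without control monolayer library 1.

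COL17A1, the collagen of hemidesmosomes, which fasten epithelial cells to basement membrane, was at 14.0 and 14.1 CPM in control monolayers, 13.3 and 15.2 in knockout monolayers, 26.8 and 27.7 in control gels, and 19.5 and 18.0 in knockout gels. The control gels were highest and the knockout gels lay between them and the monolayers. COL17A1 rose from monolayers to gels by 0.96 ± 0.094 in control cells (log2, adjusted p = 1.07e-09) and by 0.39 ± 0.10 in knockout cells (adjusted p = 0.00223). With the knockout it fell in gels by 0.54 ± 0.091 (adjusted p = 2.64e-05), and the difference in monolayers was 0.03 (adjusted p = 0.898). The interaction of -0.56 ± 0.14 (adjusted p = 0.00856) was lost under DESeq2 (0.052) and without control monolayer library 1 or knockout monolayer library 2.

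The multiplexins are basement membrane collagens that carry sugar chains, and COL18A1, the source of endostatin, held 99.4% of their level. It was at 115 and 121 CPM in control monolayers, 162 and 159 in knockout monolayers, 98.8 and 98.8 in control gels, and 96.9 and 89.9 in knockout gels. As with COL5A1, COL6A3 and COL1A1, the knockout monolayers stood above every other library. COL18A1 rose with the knockout in monolayers by 0.44 ± 0.053 (log2, adjusted p = 5.72e-08) and had a difference of -0.08 in gels (adjusted p = 0.31), an interaction of -0.53 ± 0.076 (adjusted p = 1.31e-05). From monolayers to gels it fell by 0.26 ± 0.054 in control cells (adjusted p = 0.000459) and by 0.78 ± 0.054 in knockout cells (adjusted p = 9.78e-14). COL15A1 was close to the limit of detection, at 0.362 and 0.807, 0.725 and 1.31, 0.240 and 0.274, and 1.32 and 0.957 CPM, and was tested only through its level in knockout cells. Its log2 fold change with the knockout in gels was 2.12 ± 0.51 (adjusted p = 0.00211), on few counts. DESeq2 gave it no adjusted p, and a minimum count of 50 removed it.

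Summed over all 44 genes, the collagen level was 1867 and 1913 CPM in control monolayers, 1801 and 1702 in knockout monolayers, 1696 and 1734 in control gels, and 1300.4 and 1272 in knockout gels. The knockout gels were lowest by a wide margin. Without COL13A1, the means were 1399, 1508, 1182 and 1054 CPM, so knockout monolayers then stood above control monolayers. Summed levels follow their most abundant gene and were not tested, because the members were chosen with earlier results known.

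The sums by class did not move alike. Fibrillar genes summed to 124 ± 2.26, 162 ± 7.89, 109 ± 5.99 and 94.1 ± 4.05 CPM (SD, n = 2) in the order used above, with COL5A1 giving 70.6% over all libraries. Network-forming genes summed to 821 ± 30.1, 754 ± 26.5, 594 ± 9.68 and 557 ± 6.17 CPM, and beaded filament genes to 138 ± 2.78, 156 ± 3.88, 171 ± 3.10 and 115 ± 1.60 CPM. Network genes were thus lowest in gels, while the beaded filament sum was highest in control gels. COL6A1 gave 68.6% of that sum. Without COL6A1 the beaded filament means were 48.6, 78.0, 29.4 and 26.0 CPM in the same order, highest in knockout monolayers. The FACIT sum was 75.6 ± 6.08, 48.2 ± 3.07, 79.5 ± 2.77 and 79.0 ± 7.11 CPM, low in knockout monolayers only, and the transmembrane sum was 505 ± 28.3, 258 ± 1.39, 560.2 ± 2.69 and 251 ± 1.97 CPM, low in knockout cells of both cultures. In bulk libraries, fewer cells that express a gene and less RNA per cell cannot be told apart.

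**Figure D5:**
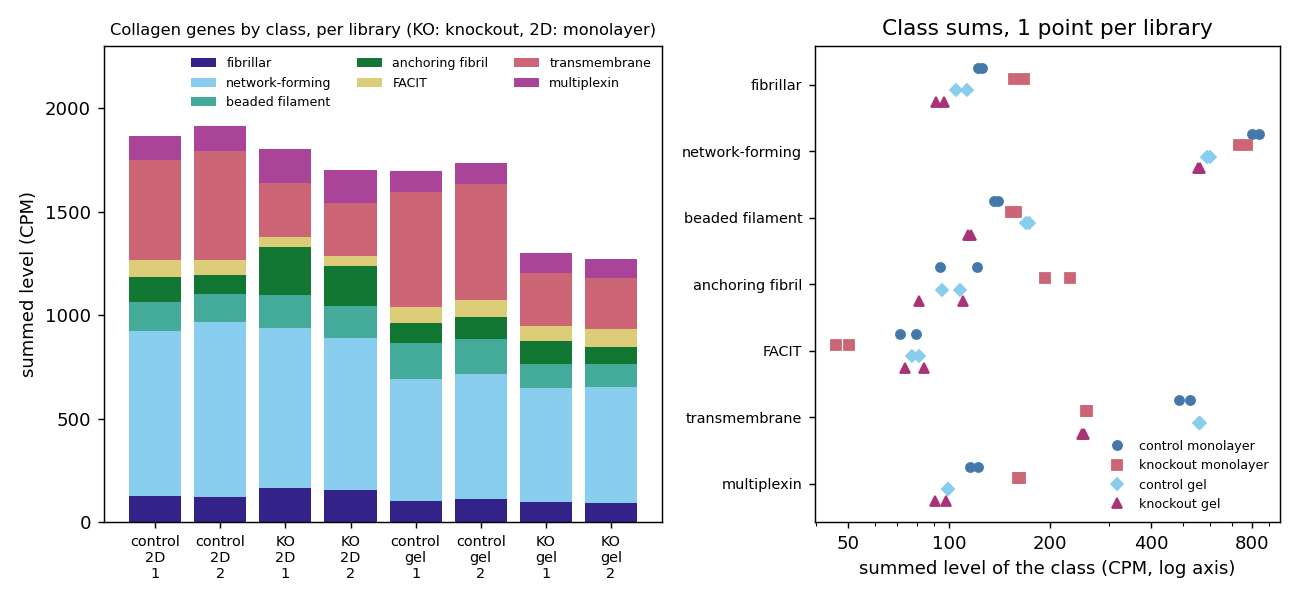
Left, summed level of the collagen genes in each library in CPM, stacked by class on a linear axis from 0. Right, the sum of each class in each library in CPM on a log axis, with 1 symbol per group. The transmembrane sum lies at 249.8 to 259 in the 4 knockout libraries and at 485 to 562 in the 4 control libraries, and the FACIT sum is lowest in knockout monolayers.

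Genes that make, process, bind and break down collagen were read as 5 further lists. Over all tested genes, 19.2% passed for the knockout in monolayers, 23.9% for the knockout in gels, 26.7% for gels in control cells and 38% for gels in knockout cells, with median log2 fold changes of 0.01, -0.00, 0.01 and -0.01. The shares and medians of each list follow that order. Of 12 tested hydroxylases and glycosyltransferases, which modify the chains in the endoplasmic reticulum, 2 rose and 2 fell with the knockout in monolayers and 0 rose and 5 fell in gels. P4HA1, a catalytic subunit of prolyl hydroxylase, was at 112 and 126 CPM in control monolayers, 103 and 114 in knockout monolayers, 142 and 140.5 in control gels, and 67.1 and 67.6 in knockout gels. It fell with the knockout in gels by 1.07 ± 0.060 (log2, adjusted p = 4.95e-16), while in monolayers the difference was -0.13 (adjusted p = 0.128). PLOD2, a lysyl hydroxylase, was at 104 and 106 CPM in knockout gels and between 153 and 183 CPM elsewhere, and fell with the knockout in gels by 0.55 ± 0.051 (adjusted p = 1.68e-10). Between the cultures, 3 of the 12 rose in gels and 0 fell in control cells, and 1 rose and 5 fell in knockout cells. The list's shares were 33.3, 41.7, 25 and 50%, with medians of 0.03, -0.09, 0.07 and -0.12.

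Of 10 tested genes for procollagen processing and crosslinking, 2 rose and 2 fell with the knockout in monolayers and 0 rose and 4 fell in gels. LOX, the lysyl oxidase that starts crosslinks, was at 72.4 and 84.2 CPM in control monolayers, 57.7 and 62.0 in knockout monolayers, 95.1 and 87.1 in control gels, and 38.3 and 39.2 in knockout gels. It fell with the knockout by 0.38 ± 0.069 in monolayers (log2, adjusted p = 0.000125) and by 1.23 ± 0.071 in gels (adjusted p = 7.52e-15). BMP1, which trims the ends of fibrillar procollagens, was at 49.0 and 52.1 CPM in knockout monolayers and between 27.2 and 33.5 CPM in the other libraries, and rose with the knockout in monolayers by 0.70 ± 0.083 (adjusted p = 1.07e-07). From monolayers to gels, 1 of the 10 rose and 0 fell in control cells, and 0 rose and 5 fell in knockout cells. The list's shares were 40, 40, 10 and 50%, with medians of -0.04, -0.41, 0.08 and -0.43, and that in control cells lay below the share of all genes.

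Of 11 tested chaperones and secretion genes, 4 rose and 1 fell with the knockout in monolayers, and 2 rose and 1 fell in gels. From monolayers to gels, 1 rose and 3 fell in control cells and 1 rose and 4 fell in knockout cells. The shares were 45.5, 27.3, 36.4 and 45.5%, with medians of 0.06, -0.00, -0.09 and -0.09, and the second was near that of all genes. CREB3L1, a transcription factor that promotes collagen production and secretion, was at 59.0 and 63.1 CPM in control monolayers, 80.2 and 80.6 in knockout monolayers, 45.9 and 44.2 in control gels, and 45.2 and 42.7 in knockout gels. It was thus highest in knockout monolayers and lower in gels, with a rise of 0.40 ± 0.062 with the knockout in monolayers (log2, adjusted p = 7.98e-06) and falls in gels of 0.43 ± 0.065 in control cells (adjusted p = 4.17e-06) and 0.87 ± 0.065 in knockout cells (adjusted p = 6.86e-13).

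Of 9 tested collagen receptors, 2 rose and 0 fell with the knockout in monolayers and 1 rose and 2 fell in gels, and from monolayers to gels 1 rose and 4 fell in control cells and 0 rose and 5 fell in knockout cells. The receptors' shares were 22.2, 33.3, 55.6 and 55.6%, with medians of 0.07, -0.15, -0.33 and -0.69, and the first was near that of all genes. Of 5 tested collagen-degrading enzymes, 4 rose and 0 fell with the knockout in monolayers and 1 rose and 1 fell in gels, while from monolayers to gels 2 rose and 0 fell in control cells and 1 rose and 1 fell in knockout cells. The shares of these 5 genes were 80, 40, 40 and 40%, with medians of 0.65, 0.32, 0.36 and -0.04. MMP14, the membrane-bound collagenase, was at 801 and 861 CPM in control monolayers, 1075 and 1044 in knockout monolayers, 1073 and 1061 in control gels, and 856 and 819.8 in knockout gels. It was thus higher in knockout monolayers and in control gels than in control monolayers, and lower in knockout gels than in control gels. Its log2 fold changes were 0.35 ± 0.046 for the knockout in monolayers (adjusted p = 3.9e-07) and -0.35 ± 0.046 in gels (adjusted p = 3.33e-07), with an interaction of -0.70 ± 0.065 (adjusted p = 1.97e-09).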

How the data were processed

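Messenger RNA of 8 MDA-MB-231 libraries was compared. The authors deposited raw counts per gene symbol. The tools named in the submitters' processing notes are STAR 2.7.9a, featureCounts, FastQC 0.11.9 and R 4.1.1, and the build is hg38. Annotation and strandedness of the counting were not stated there, so counts of overlapping genes on opposite strands (COL4A1 with COL4A2, COL9A3 with TCFL5) and of close paralogs are uncertain. Counts passing filterByExpr (minimum count 10; 15568 genes with 99.89% of the counts) were scaled by TMM and tested in a model of 4 group means with edgeR 4.0.16 (quasi-likelihood F-test, robust, two-sided, 4 residual degrees of freedom) in R 4.3.3, with Benjamini-Hochberg adjustment over all tested genes and a threshold of 0.05. The SE of a log2 fold change is its size over the square root of F. The biological coefficient of variation was 4.03%, and counting and replicate spread together set the precision. Levels per kb use the longest coding transcript of GENCODE v29, in which all 44 members were found. The script was tested on simulated data. There the share of false calls exceeded the threshold of 0.05, and most of the smallest planted changes were missed. Alternatives were DESeq2 1.42.0 and its size factors, upper-quartile and library-size scaling, no filter, a minimum count of 50, only the groups compared, length and GC offsets, a replicate block, and leaving out each library.

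All tested members are named, the 12 with the smallest adjusted p in full, and from each other list a gene is named where it was among the 2 with the smallest adjusted p over the 5 lists in a pairwise comparison. The members and lists were chosen with earlier results of these data known. The libraries' numbers are shared between groups, but replicate differences of any 2 groups correlated across genes at only -0.063 to 0.082, so the numbers were not taken to pair libraries.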

Additional observations from a re-analysis of the deposited data

Results flagged for a closer look

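The knockout effect differed between the cultures for 8 of 24 tested collagen genes, by edgeR's quasi-likelihood test of the interaction (effect in gels minus effect in monolayers, 2 libraries a group, adjusted over all genes). On the log2 scale the interaction was -0.76 ± 0.12 for COL6A3, -0.68 ± 0.083 for COL5A1, -0.53 ± 0.076 for COL18A1 and 0.84 ± 0.12 for COL12A1, all 4 of which moved with the knockout in monolayers more than in gels. It was 0.40 ± 0.070 for COL8A1, which fell with the knockout in monolayers and had a small positive difference in gels.

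The interaction was -0.48 ± 0.077 for COL6A1, -0.56 ± 0.14 for COL17A1 and -0.23 ± 0.066 for COL4A2, which moved with the knockout in gels more than in monolayers. The last was lost without any library other than control monolayer library 2 and knockout monolayer library 2. It was also lost without the filter (adjusted p = 0.0656) and with length and GC offsets (0.0769). If the control monolayers received no Cas9, the interaction also holds that difference, and its part was not tested.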

How the results depend on the processing

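Of 59 calls of a collagen gene in a comparison, 38 held under every setting that gave them a value, 21 were lost under at least 1, of which 7 only when a library was left out, and 0 reversed. Of the 18 settings, DESeq2 and a minimum count of 50 gave no value for 5 of these calls (COL11A1 in both kinds of cell, COL15A1, COL9A3 and COL4A6), of which COL15A1 counts among the 38 and 2 among the 7. The 8 interaction calls could not be fitted with only the groups compared. Of 61 uncalled pairs, 7 gained a call under some setting. They were COL9A3 and COL12A1 for gels in control cells, COL13A1 for gels in knockout cells, and COL8A1 for the knockout in gels. The rest were COL7A1, COL1A1 and COL13A1 for the interaction. COL8A1, COL1A1 and the COL13A1 interaction gained it only when a library was left out. With the replicate block the numbers of collagen genes called were 14, 10, 11, 16 and 8 (knockout in monolayers, knockout in gels, gels in control cells, gels in knockout cells, interaction), as without it. DESeq2 called 11, 7, 8, 13 and 8, where its 8 interaction calls held COL7A1 in place of COL17A1. Leaving out each library in turn gave 9 to 14 for the knockout in monolayers (9 without knockout monolayer library 2), 7 to 10 for the knockout in gels, 7 to 12 for gels in control cells (7 without control monolayer library 1 or control gel library 1), 12 to 16 for gels in knockout cells and 6 to 9 for the interaction. Among the scalings, the largest move of the median of all genes was -0.09, by library size alone for gels in control cells. Tested genes under 1 CPM in some library (COL11A1, COL11A2, COL15A1, COL4A6, COL5A2 and COL9A3) rest on few counts.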
